A study of Mus musculus with 2 samples.

Results

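The 4 genes of the TCF/LEF family, Tcf7l2, Lef1, Tcf7l1 and Tcf7, were read in the midbrain of newborn mice. They were chosen by name as the transcription factors of this family. All 4 were found among the 43346 Ensembl genes of the tables. Total RNA had been sequenced from the midbrain of B6NCrl mice on postnatal day 0, with no treatment named. There was 1 group of 2 animals, pup 1 and pup 3, with 1 library from the single midbrain of each. Both pups carried the same donor identifier and their sex was not collected. The libraries held 36934868 estimated counts in pup 1 and 40769103 in pup 3. Values are in TPM, a level corrected for gene length and library size, and are given for each pup or as mean ± SD over the 2 pups.

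TCF/LEF proteins are the DNA-binding end of the canonical Wnt pathway. A high mobility group (HMG) box binds the target gene, and a short stretch at the N-terminus binds beta-catenin. With beta-catenin the factor activates its targets, and without it the factor binds Groucho co-repressors (the Tle genes) and holds them down. Forms that keep the HMG box but lack the N-terminal stretch cannot take up beta-catenin and are known to act as dominant negatives. In the mouse brain Tcf7l2 is known for its expression in postmitotic neurons of the thalamus, habenula and dorsal midbrain and in newly formed oligodendrocytes. Lef1 is a factor of brain endothelium and of some neurons, Tcf7l1 is a repressor typical of stem and progenitor cells, and Tcf7 is best known from T lymphocytes.

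The 4 genes share the HMG box, and a 108-base coding exon of it is shown first because it is what makes them a family. The sequences are in the coding sense from GENCODE M21 transcripts (GRCm38, the same build as mm10), and capitals mark the 74 of 108 bases that were identical in all 4 genes. The exon lies at chr19:55919511-55919618 (plus strand) in Tcf7l2, chr3:131200295-131200402 (plus) in Lef1, chr6:72631012-72631119 (minus) in Tcf7l1 and chr11:52256740-52256847 (minus) in Tcf7.
Tcf7l2: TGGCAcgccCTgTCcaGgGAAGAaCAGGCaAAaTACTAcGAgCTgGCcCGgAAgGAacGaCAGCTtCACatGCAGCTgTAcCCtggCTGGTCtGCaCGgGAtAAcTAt
Lef1: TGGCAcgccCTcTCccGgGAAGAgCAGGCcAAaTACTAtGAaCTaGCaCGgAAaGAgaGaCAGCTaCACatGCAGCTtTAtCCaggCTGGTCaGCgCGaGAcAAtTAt
Tcf7l1: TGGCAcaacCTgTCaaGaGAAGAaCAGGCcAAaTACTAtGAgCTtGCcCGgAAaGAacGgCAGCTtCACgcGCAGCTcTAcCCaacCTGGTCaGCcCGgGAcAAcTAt
Tcf7: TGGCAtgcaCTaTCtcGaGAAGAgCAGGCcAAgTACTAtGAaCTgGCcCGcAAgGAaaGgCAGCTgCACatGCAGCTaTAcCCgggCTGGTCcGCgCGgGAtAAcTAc
The exon codes 36 whole residues, and these were identical in Tcf7l2, Lef1 and Tcf7, while Tcf7l1 shared 33 of them. At the base level Tcf7l2 matched Tcf7l1 at 90 bases and both Lef1 and Tcf7 at 88. Along the whole proteins of the leading coding transcripts the match was lower, at 71.1% of aligned residues between Tcf7l2 and Tcf7l1, 63.2% with Lef1 and 54.4% with Tcf7.

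Tcf7l2 carried most of the family's RNA. This gene (ENSMUSG00000024985.14, chr19:55741820-55933654, plus strand) stood at 645 TPM in pup 1 and 726 TPM in pup 3, from 44642 and 55213 counts. Both libraries placed it near the top of the tissue, at rank 174 of 21474 protein-coding genes in pup 1 and rank 138 in pup 3. The mean level was 685 ± 57.5 TPM (SD, n = 2), against a median of 4.61 ± 0.127 over all protein-coding genes.

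Lef1 (ENSMUSG00000027985.10, chr3:131110471-131224356, plus strand) was the second of the family, at 43.9 TPM in pup 1 and 43.8 TPM in pup 3, from 3308 and 3622 counts. It exceeded 83.0% of protein-coding genes in pup 1 and 82.8% in pup 3. Tcf7l1 (ENSMUSG00000055799.9, chr6:72626378-72789254, minus strand) was at 5.14 TPM in pup 1 and 4.95 TPM in pup 3, from 335 and 350 counts. Tcf7 (ENSMUSG00000000782.11, chr11:52252371-52283014, minus strand) was lowest, at 2.68 TPM in pup 1 and 2.61 TPM in pup 3, from 138 and 146 counts. Tcf7l1 thus lay close to the median coding gene and Tcf7 under it. Means were 43.9 ± 0.0636 for Lef1, 5.04 ± 0.134 for Tcf7l1 and 2.64 ± 0.0495 for Tcf7 (SD, n = 2). In whole tissue a small number of cells with much RNA and many cells with little RNA each cannot be told apart.

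Of the summed TPM of the 4 genes, Tcf7l2 held 93.0% ± 0.578, with 92.6% in pup 1 and 93.4% in pup 3. Lef1 held 5.97% ± 0.472, Tcf7l1 0.687% ± 0.0716 and Tcf7 0.36% ± 0.035 (SD, n = 2). The order of the 4 genes was the same in both pups. Within each library Tcf7l2 exceeded Lef1 14.7-fold in pup 1 and 16.6-fold in pup 3. It exceeded Tcf7l1 125-fold and 147-fold, and Tcf7 241-fold and 278-fold. On the log2 scale of TPM plus 0.1, these ratios were 3.96 ± 0.12, 7.06 ± 0.16 and 7.96 ± 0.15 (SD, n = 2).

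Of the 6 pairs of members, 5 were apart, meaning the same sign in both pups, a mean log2 ratio above 1 and above 3 SD, and deposited credibility intervals that did not overlap in either pup. The deposited interval of Tcf7l2 ran from 622 to 639 TPM in pup 1 and from 703 to 719 TPM in pup 3. It is an interval of the posterior mean and lies under the TPM itself. The pair that missed the rule was Tcf7l1 over Tcf7, with a log2 ratio of 0.91 ± 0.012. Its intervals did not overlap, from 4.76 to 6.30 TPM for Tcf7l1 and from 2.22 to 3.14 TPM for Tcf7 in pup 1, but the ratio was under 1. With 1 group and 2 animals, no test between conditions was possible.

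**Figure D1:**
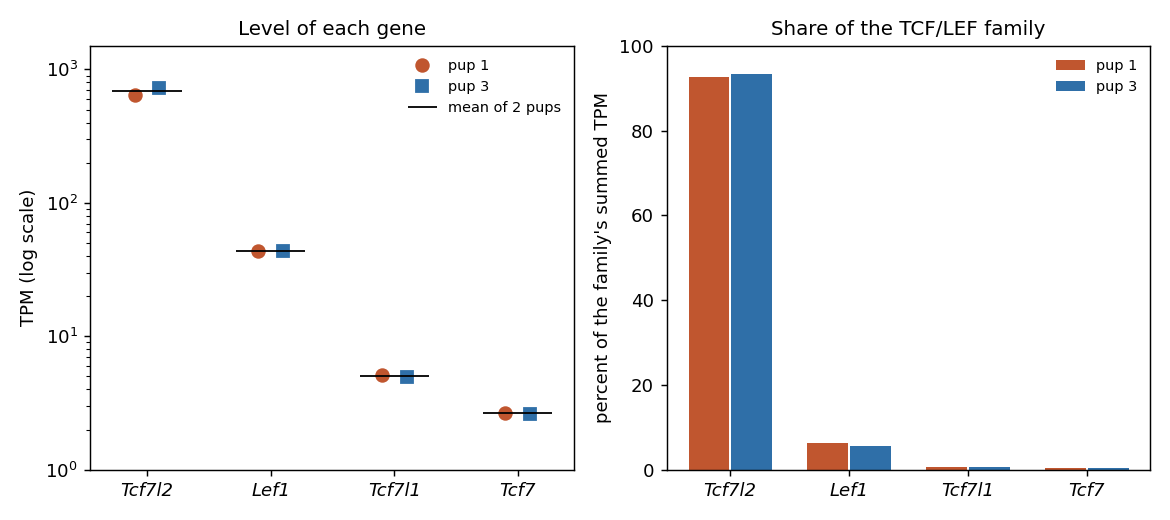
TPM of the 4 TCF/LEF genes on a log axis (left, circles pup 1, squares pup 3, line their mean) and the percent of the family's summed TPM held by each gene (right, bars by pup). Tcf7l2 stands at 645 and 726 TPM and holds 92.6% and 93.4% of the family, with Lef1 at about 44 TPM and the other two genes near or under 5 TPM.

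The pups were close in all 4 genes. The log2 difference of pup 1 minus pup 3 was -0.17 for Tcf7l2, 0.053 for Tcf7l1, 0.037 for Tcf7 and 0.0030 for Lef1. None of the 4 members passed 1 on this scale (0 of 4), where 0.315% of the 13318 genes with a mean count of at least 100 did. In the direction of Tcf7l2, below -1, the share was 0.218% of those genes. A difference at least as large as that of Tcf7l2 was found in 32.0% of those genes. For Tcf7l2 the counts alone gave a log2 difference of -0.16 with an exact 95% interval from -0.18 to -0.15, which covers counting error only. Over the gene lists described further on, the 10 thalamic genes summed to 234 TPM in pup 1 and 265 TPM in pup 3 (log2 difference -0.18), while Lhx2 among them was higher in pup 1. The 15 dorsal midbrain genes summed to 383 TPM in pup 1 and 372 TPM in pup 3 (0.041). The sum was also lower in pup 1 for the habenular list (-0.11) and for lists that are not regional, with log2 differences of -0.17 for the destruction complex of beta-catenin, -0.12 for Wnt receptors and -0.10 for co-activators. The part of these lists in the difference of Tcf7l2 was not tested.

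The reads of Tcf7l2 were then followed by transcript. The tables hold 22 transcripts of this gene, of which 18 had TPM above 0 in both pups and 3 were at 0 in both. The leading one, Tcf7l2-209 (ENSMUST00000111656.3), held 65.8% of the gene's TPM in pup 1 and 66.2% in pup 3 (mean 66.0% ± 0.332, SD, n = 2). At 424 TPM in pup 1 and 481 TPM in pup 3, this transcript alone lay above the summed level of the other 3 genes. It is annotated with a protein of 459 residues. The next was Tcf7l2-203 (ENSMUST00000111646.3), at 11.2% in pup 1 and 10.1% in pup 3. It was followed by Tcf7l2-218 (ENSMUST00000142291.3), a model with no annotated end, at 4.78% and 5.14%. The remaining 19 transcripts together held 18.3% in pup 1 and 18.5% in pup 3, none of them above a mean of 2.94%, and 11 of them lay under 1%.

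**Figure D2:**
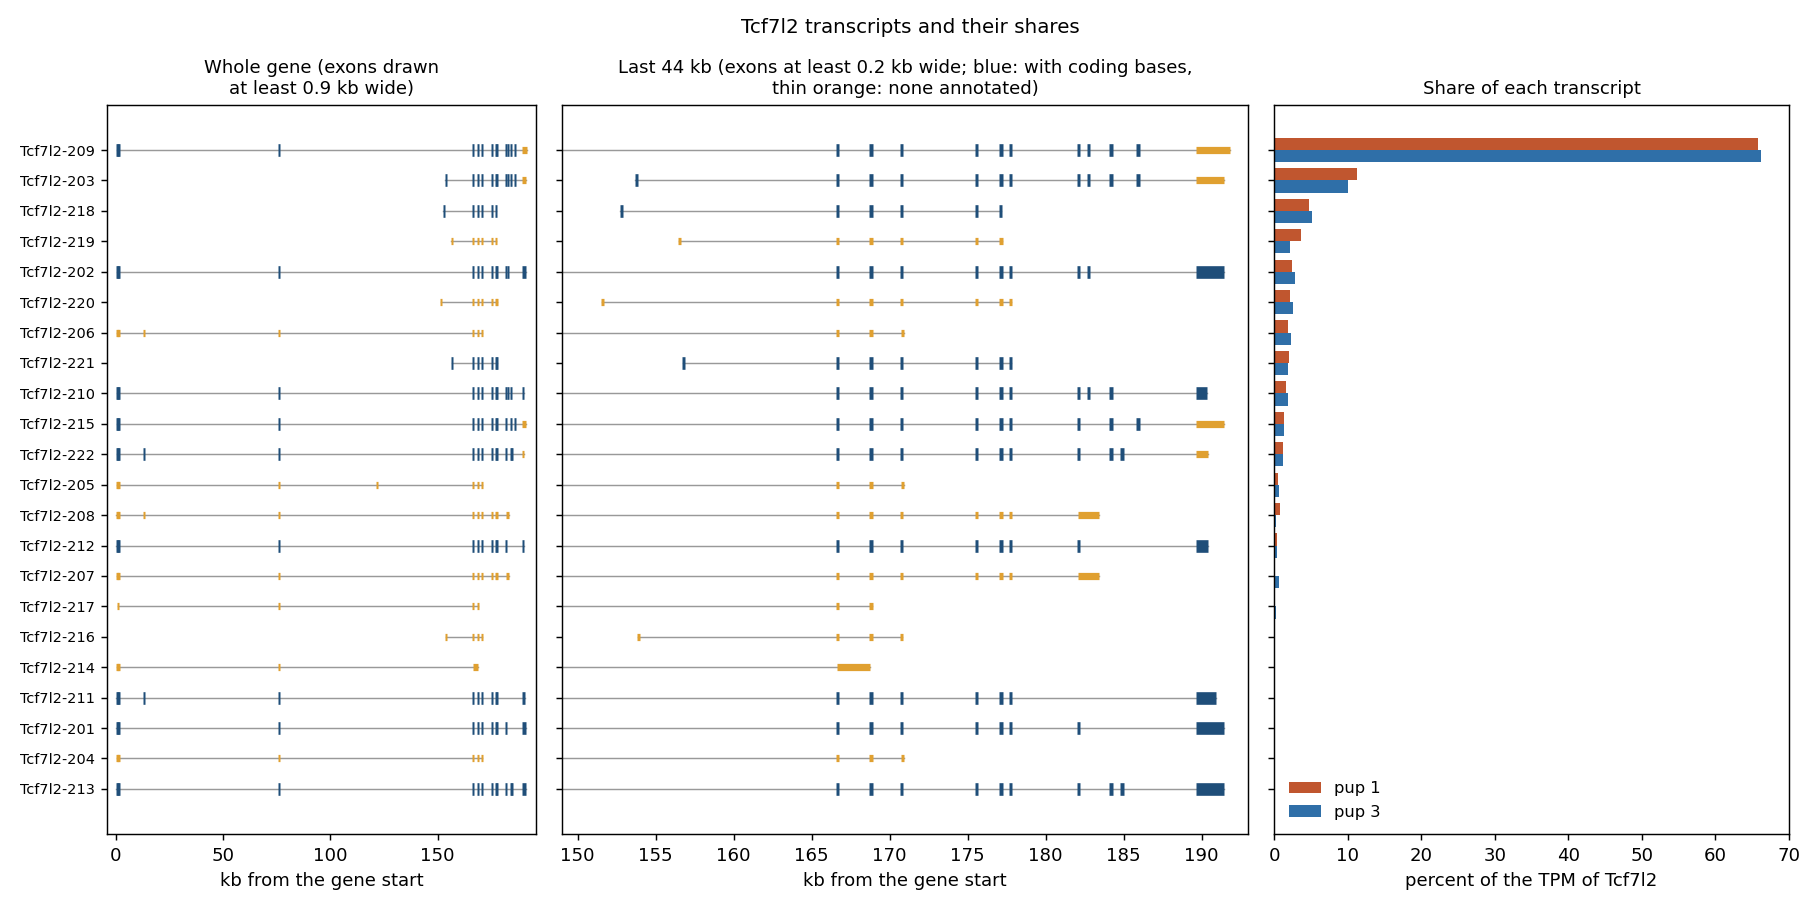
The 22 annotated Tcf7l2 transcripts ordered by their mean share, with exons over the whole gene (left) and its last 44 kb (middle), as distance from the gene start in kb, and the percent of the gene's TPM in each pup (right). Exons shorter than 0.9 kb (left) or 0.2 kb (middle) are drawn at that width; thick blue exons hold coding bases and thin orange ones have none annotated. Tcf7l2-209 holds 65.8% and 66.2%, and Tcf7l2-203, which begins inside the gene, holds 11.2% and 10.1%.

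Of the 22 transcripts, 15 begin at the first exon, 6 at an internal first exon about 152 to 157 kb into the gene, and 1 (Tcf7l2-217, at 0.46 and 1.68 TPM) inside an early intron. The difference matters for beta-catenin, because the first coding exon carries its binding stretch. That exon is shown for the 3 genes whose leading transcript holds it, with capitals on the 18 bases that code the most conserved part of the stretch. The coding part lies at chr19:55742342-55742530 in Tcf7l2, chr3:131111472-131111678 in Lef1 and chr6:72788710-72788952 in Tcf7l1.
Tcf7l2: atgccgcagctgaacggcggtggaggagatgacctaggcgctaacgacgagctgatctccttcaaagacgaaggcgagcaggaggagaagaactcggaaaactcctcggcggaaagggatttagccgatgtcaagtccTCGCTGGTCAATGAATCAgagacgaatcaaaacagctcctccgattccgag
Lef1: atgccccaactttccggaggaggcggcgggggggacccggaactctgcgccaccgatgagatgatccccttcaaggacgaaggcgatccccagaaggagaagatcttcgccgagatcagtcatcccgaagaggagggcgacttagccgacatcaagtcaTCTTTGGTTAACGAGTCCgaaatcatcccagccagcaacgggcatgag
Tcf7l1: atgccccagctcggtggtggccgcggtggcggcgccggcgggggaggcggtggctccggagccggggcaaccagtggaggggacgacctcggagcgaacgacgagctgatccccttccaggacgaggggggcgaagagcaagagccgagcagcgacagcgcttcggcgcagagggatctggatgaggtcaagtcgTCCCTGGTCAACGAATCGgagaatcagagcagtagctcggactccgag
No Tcf7 sequence is shown, because neither of its 2 transcripts in the tables has a reading frame with this stretch. Both are annotated with 303 residues, and they held 79.3% ± 1.36 (Tcf7-201) and 20.7% ± 1.36 (Tcf7-202) of the TPM of Tcf7. No other Tcf7 model could take reads. The lack of the stretch is thus set by the annotation, and whether Tcf7 RNA carried it was not measured.

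Most Tcf7l2 RNA could code for the beta-catenin-binding form. The 9 transcripts whose reading frame starts in the first coding exon held 72.8% of the gene's TPM in pup 1 and 73.9% in pup 3, a level of 469 and 537 TPM. Their mean share was 73.4% ± 0.838 (SD, n = 2). Among annotated coding transcripts alone, the share was 80.7% ± 0.711.

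A smaller part was assigned to transcripts that begin inside the gene. The 6 transcripts with an internal first exon held 23.9% of the gene's TPM in pup 1 and 22.0% in pup 3, or 154 and 160 TPM, above the level of Lef1 in both pups. Of these 6 models, 5 are short and stop before the last exon, and division by a short length raises their TPM. Of the counts, which are not divided by length, the 6 held 13.1% in pup 1 and 11.8% in pup 3. Only Tcf7l2-203 among them reaches the last exon, and of the 10 transcripts that reach it Tcf7l2-203 held 13.3% of TPM in pup 1 and 12% in pup 3. Transcripts with internal starts thus had a share in both pups by all 3 measures, and its size depends on the measure. The 3 measures come from the same deposited assignment of reads to transcripts, so they do not check each other. Reads over the internal first exons themselves were not examined.

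Tcf7l2-203 codes 299 residues, and its last 298 are the same as the end of the leading protein. It lacks the first 161 residues of that protein, beta-catenin-binding stretch included, and keeps the HMG box. Its start codon is the last codon of its internal first exon (bases chr19:55895623-55895637), which is spliced to the 133-base exon that begins at chr19:55908423. The 30 bases around the start codon, in capitals, read as follows.
Tcf7l2-203 start: ggcgacccctagATGtcgaacaaagtaccg
Counts of 4576 in pup 1 and 5066 in pup 3 were assigned to Tcf7l2-203, against 34609 and 42880 to Tcf7l2-209. Whether the protein was made was not measured.

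The C-terminal end of Tcf7l2 is known to vary by splicing between a long form, which carries a second DNA-contacting element called the C-clamp and binding sites for the co-repressor CtBP, and short forms. These ends differ through the exons between the HMG box and the last exon, shown here because they decide the reading frame. They lie at chr19:55924530-55924580, chr19:55925977-55926049 and chr19:55927730-55927754 on the plus strand, and capitals in the 25-base exon mark the stop codon used by the leading transcript.
51-base exon: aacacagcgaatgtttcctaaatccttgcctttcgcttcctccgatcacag
73-base exon: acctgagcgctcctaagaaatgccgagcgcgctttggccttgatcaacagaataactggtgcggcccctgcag
25-base exon: tcttTGAatttggaatattatgatg
The leading protein shares its first 457 residues with the long form of 598 residues (Tcf7l2-210). It then has 2 further residues and stops at the codon in the 25-base exon, where the long form goes on for 141 residues.

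Nearly all complete reading frames ended short. Of the TPM of the 10 transcripts with a complete reading frame, those with the long frame in the last exon held 1.91% in pup 1 and 2.19% in pup 3, a mean of 2.05% ± 0.203 (SD, n = 2). This was Tcf7l2-210 alone, at 10.3 TPM in pup 1 and 13.4 TPM in pup 3, since Tcf7l2-213 was at 0 in both. Tcf7l2-210 is among the 5 transcripts whose length differed between the annotation of the tables (GENCODE M4) and the one read here (M21), so its deposited model may have another frame. Transcripts that stop in an exon before the last held 94.3% ± 0.576, and those with a short frame in the last exon 3.66% ± 0.374. The 25-base exon with the stop codon was included in 93.2% of the spanning TPM in pup 1 and 92.4% in pup 3. The first part of the C-clamp, coded by the 73-base exon, was kept in 96.3% ± 0.374 of complete frames. This is not a share of whole C-clamps, since the leading frame ends 2 residues after the part it shares with the long form.

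Other optional pieces of Tcf7l2 were nearly fixed in one form. The 51-base exon was included in 96.4% ± 0.0118 of the TPM that spans it and the 73-base exon in 96.3% ± 0.374. A 69-base exon between the third and the fourth common exon was included in 4.96% ± 0.220, and a 144-base exon in 0.759% ± 0.0794. A 103-base exon at chr19:55910579-55910681 was used in 97.4% ± 0.129, against 2.59% ± 0.129 for a form without its last 12 bases. These bases, in capitals, help code 4 residues known as the LVPQ motif, a short element of TCF proteins studied in frog for its part in repression.
103-base exon: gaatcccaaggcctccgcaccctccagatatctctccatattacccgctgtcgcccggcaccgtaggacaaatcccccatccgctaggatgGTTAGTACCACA
A second optional piece, 15 bases at the start of a later exon, was left out in 96.2% ± 0.625 and kept in 3.82% ± 0.625. Each of these shares was close in the 2 pups. They are shares of RNA and not of proteins, since the rarer forms lay largely on models with no annotated reading frame. Without the 12 bases these were Tcf7l2-206 (mean 14.3 TPM) and Tcf7l2-208 (3.21 TPM), beside the coding Tcf7l2-211 (0.13 TPM). With the 15 bases they were Tcf7l2-219 (19.8 TPM) and Tcf7l2-207 (2.40 TPM), beside the coding Tcf7l2-212 (2.88 TPM) and Tcf7l2-211. By counts, which are not divided by length, the rarer forms were lower, at 2.26% ± 0.324 for the 69-base exon, 0.229% ± 0.0248 for the 144-base exon, 1.15% ± 0.28 without the 12 bases and 1.25% ± 0.145 with the 15 bases. They rest on the exon combinations that the annotation lists, so a combination that it lacks could not be read.

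**Figure D3:**
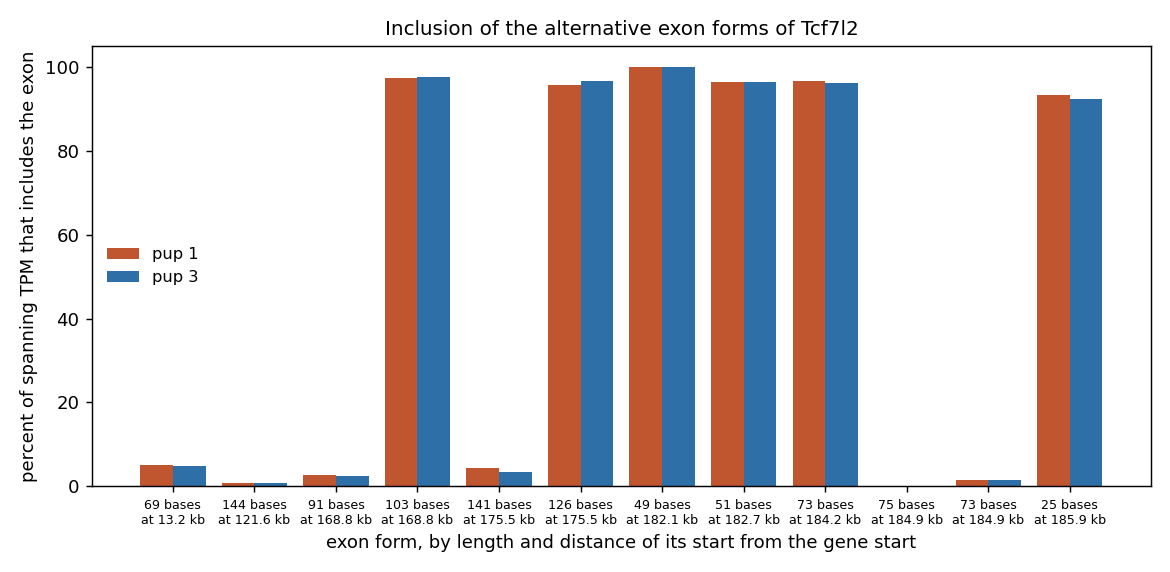
Percent of the TPM of spanning Tcf7l2 transcripts that includes each alternative exon form, by pup, with the forms named by length and by distance from the gene start in kb. The 51-base, 73-base and 25-base exons lie above 92% in both pups, and the 69-base exon lies near 5%.

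Lef1 was read from 6 transcripts. Lef1-204 (384 residues) led with 75.5% of the gene's TPM in pup 1 and 65.4% in pup 3, followed by Lef1-201 (397 residues) at 15.4% and 17.5%. Lef1-202 (369 residues) held 6.98% in pup 1 and 15.7% in pup 3, so the pups were further apart here than for Tcf7l2-209 or Tcf7l2-203. The deposited intervals of Lef1-202 overlapped between the pups, from 0.275 to 6.65 TPM in pup 1 and from 2.08 to 10.3 TPM in pup 3. Those of Lef1-204 overlapped as well, from 28.7 to 35.2 TPM and from 24.8 to 31.5 TPM. An 84-base exon (chr3:131191023-131191106) was included in 16.5% of the spanning TPM in pup 1 and 17.8% in pup 3. A 41-base exon near the end (chr3:131204933-131204973) was included in 23.5% in pup 1 and 33.6% in pup 3. Lef1-202 is among the transcripts that include it, so this gap carries the same uncertainty. Transcripts with the beta-catenin-binding stretch held 98.3% ± 0.464 of the TPM of Lef1, against 73.4% ± 0.838 for Tcf7l2 (SD, n = 2). All 6 Lef1 models begin before the 67-base exon at chr3:131113856-131113922. No Lef1 model with a start further inside the gene could therefore take reads, as 6 Tcf7l2 models could. The gap between the 2 genes thus depends on the annotation. Tcf7l1 was read from 2 of its 5 transcripts, both with the stretch. Tcf7l1-201 (585 residues) held 88.5% ± 1.27 and Tcf7l1-202 (599 residues) held 11.5% ± 1.27.

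Among the partners of the family, beta-catenin and its co-activators were all present but under Tcf7l2. All 10 genes of that list reached 1 TPM in each pup, with a median of 19.4 ± 1.90 TPM (SD, n = 2), against 62.1% of all protein-coding genes at that level. Ctnnb1, which encodes beta-catenin, was at 231 TPM in pup 1 and 241 TPM in pup 3, so Tcf7l2 exceeded it 2.80-fold and 3.02-fold. The kinase gene Tnik followed at 42.2 and 47.9 TPM, and Bcl9, which links beta-catenin to Pygopus, at 43.7 and 43.4 TPM. The Pygopus genes Pygo2 and Pygo1 were at 33.7 ± 1.13 and 7.5 ± 0.61 TPM. By mean Bcl9l was lowest, at 5.78 TPM in both pups, although Cdc73 was under it in pup 1 (4.04 and 7.66 TPM).

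All 14 genes of the list of co-repressors and inhibitors of TCF/LEF reached 1 TPM in each pup, against 62.1% of all protein-coding genes. Their median was 21.7 ± 1.89 TPM (SD, n = 2), about 1 SD from that of the co-activators. The highest, Aes (also called Tle5, a short Groucho protein), was at 619 TPM in pup 1 and 581 TPM in pup 3. It was the only partner near the level of Tcf7l2. Ctbp1, a co-repressor that long TCF forms bind, was at 257 ± 6.77 TPM, and the histone deacetylase gene Hdac2 at 174 ± 3.81 TPM. Ctnnbip1, an inhibitor that keeps beta-catenin from TCF proteins, was at 97.2 TPM in pup 1 and 96.3 TPM in pup 3. The full-length Groucho genes were lower, with Tle2 at 48.8 ± 0.354, Tle1 at 18.6 ± 1.52, Tle3 at 17.8 ± 1.03 and Tle4 at 17.6 ± 0.544 TPM. Tle6 was lowest at 3.99 and 6.39 TPM. Nlk, a kinase that phosphorylates TCF proteins, was at 18.7 and 21.3 TPM.

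All 12 genes of the complex that degrades beta-catenin reached 1 TPM in each pup, against 62.1% of all protein-coding genes. The complex was expressed throughout, with a median of 80.0 ± 8.17 TPM. It was led by the casein kinase genes Csnk1a1 (205 ± 16.7) and Csnk1e (145 ± 25.1) and by Gsk3b (121 ± 8.70). The scaffold gene Axin2 was lowest at 8.20 TPM in pup 1 and 6.31 TPM in pup 3, and Axin1 was at 15.8 and 18.2 TPM.

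Ligands and receptors had low medians, both under the 4.61 TPM of all protein-coding genes. Of 21 genes for Wnt ligands and their export, 11 reached 1 TPM in each pup, against 62.1% of all protein-coding genes. The median of this list was 1.19 ± 0.212 TPM. The export genes Wls (38.7 ± 2.92) and Porcn (37.0 ± 1.37) led it, and Wnt7b, the highest ligand, was at 14.4 and 14.7 TPM. Wnt8a was at 0 counts in both pups, which allows up to 3 counts in each library. Of 21 receptor and R-spondin genes 17 reached 1 TPM in each pup, a share above that of all protein-coding genes. This list had a median of 2.165 ± 0.361 TPM and was led by Fzd3 (14.4 and 20.4 TPM), Fzd1 (13.0 ± 1.33) and Fzd9 (12.6 ± 0.134). The lowest, Rspo4, was at 0.48 and 0.38 TPM.

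Of 14 genes known as Wnt targets or feedback regulators, 12 reached 1 TPM in each pup, against 62.1% of all protein-coding genes. The median was 9.64 ± 0.481 TPM. Myc was highest at 29.7 TPM in pup 1 and 25.1 TPM in pup 3, followed by the receptor gene Tnfrsf19 (21.9 ± 1.62) and the transcription factor gene Sp5 (19.0 ± 0.700). Nkd1 and Nkd2, feedback inhibitors of the pathway, were at 16.5 ± 0.0354 and 16.1 ± 0.636 TPM. Dkk1, a secreted inhibitor, was lowest at 0.5 and 0.43 TPM. Axin2, often used as a readout of the pathway, was far under Tcf7l2, which exceeded it 78.6-fold in pup 1 and 115-fold in pup 3. RNA levels do not measure the activity of the pathway.

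**Figure D4:**
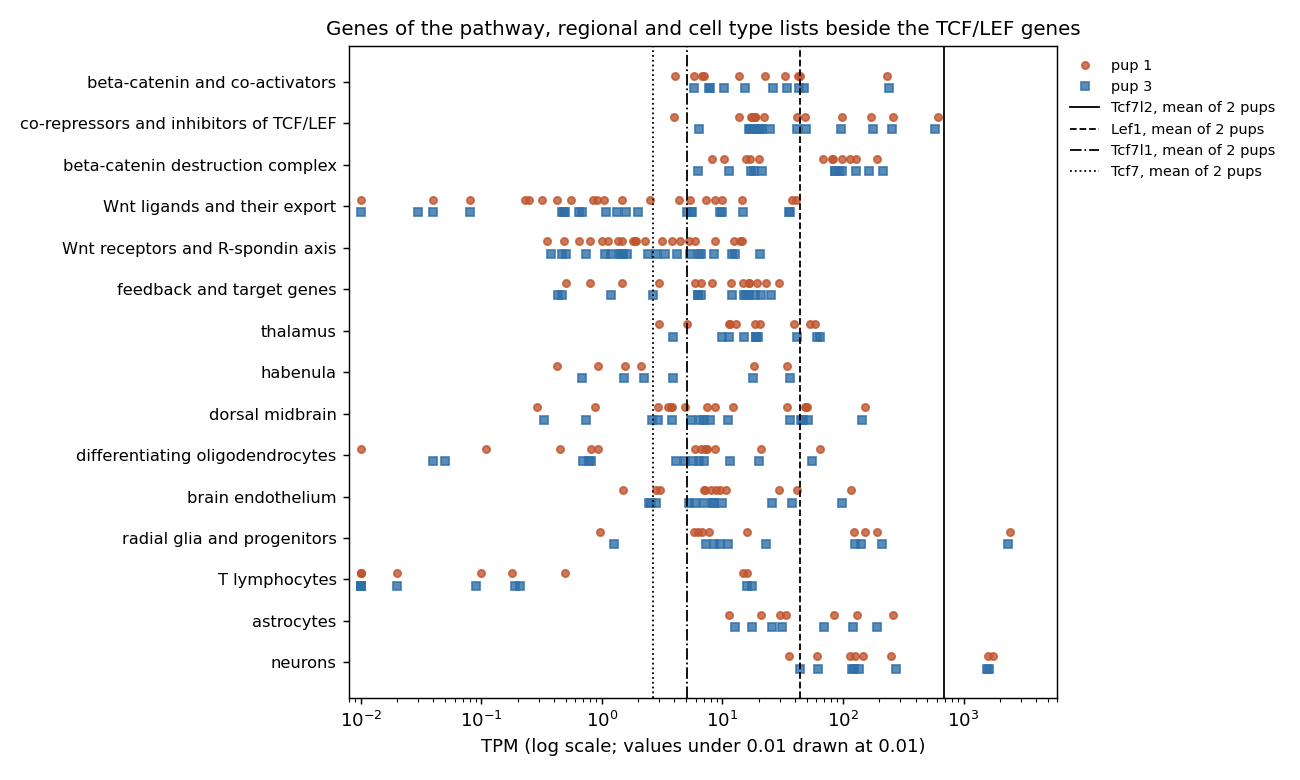
TPM of every gene in the pathway, regional and cell type lists on a log axis, circles for pup 1 and squares for pup 3, with vertical lines at the mean level of each TCF/LEF gene. The line of Tcf7l2 at 685 TPM lies to the right of all points except Fabp7, Tubb3 and Stmn2.

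Regional genes known to accompany Tcf7l2 were read beside it. Of 15 dorsal midbrain genes 13 reached 1 TPM in each pup, against 62.1% of all protein-coding genes. The median of this list was 7.21 ± 0.325 TPM. Tal2 was at 0.290 and 0.330 TPM and En2 at 0.880 and 0.740. The list was led by Tfap2b (148 ± 4.61), Otx2 (50.7 ± 0.643) and Tfap2d (47.6 ± 1.23 TPM). All 10 thalamic genes reached 1 TPM in each pup as well, with a median of 17.4 ± 2.25 TPM. Foxp2 was at 59.9 ± 1.15, Lhx9 at 58.8 ± 8.48 and Rora at 40.4 ± 2.08 TPM, all 3 genes also expressed outside the thalamus. Gbx2, a factor of thalamic neurons, was at 13.0 TPM in pup 1 and 19.6 TPM in pup 3, and the lowest, Slitrk6, at 3.00 and 3.87 TPM. Of 6 habenular genes 4 reached 1 TPM in each pup, a share near that of all protein-coding genes. They were led by Pou4f1 (35.6 ± 1.36), Chrna3 (18.1 ± 0.325) and Tac2 (1.56 and 3.88 TPM). Pou4f1 is also on the dorsal midbrain list. It held 34.6 of the 58.0 TPM of the habenular list in pup 1 and 36.5 of 62.8 TPM in pup 3. Gpr151, a habenular receptor, was at 0.420 and 1.52 TPM and Chrnb3, the lowest, at 0.920 and 0.680. Tcf7l2 exceeded the highest regional gene, Tfap2b, 4.26-fold in pup 1 and 5.02-fold in pup 3.

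Markers of the cell types in which TCF/LEF genes are known were read next. Neuronal genes were all above 1 TPM, with a median of 132 ± 4.47 TPM, led by Tubb3 (1694 ± 83.8), Stmn2 (1580 ± 34.2) and Snap25 (264 ± 19.8), and lowest for Gad2 (35.9 and 43.6 TPM). Of 13 genes of differentiating oligodendrocytes 8 reached 1 TPM in each pup, close to the 62.1% of all protein-coding genes at that level. All 13 together summed to 131 TPM in pup 1 and 118 TPM in pup 3. Cnp (60.1 ± 6.51 TPM) and Mbp (20.6 ± 0.643 TPM) had the highest levels. Enpp6, a marker of newly formed oligodendrocytes, was at 0.450 and 0.700 TPM, and Opalin was lowest at 0 and 0.05 TPM. Other genes of the list lay on either side of 1 TPM. Itpr2 was at 7.22 and 7.03, Bcas1 at 7.28 and 6.42 and Gpr17 at 6.60 and 4.10 TPM. Myrf was at 0.81 and 0.78 and Neu4 at 0.11 and 0.04 TPM. Whole tissue does not show which cells held Tcf7l2, and the share from each cell type was not tested.

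For Lef1, known from brain endothelium and from some neurons, the endothelial list was read. All 12 genes of this list reached 1 TPM in each pup, against 62.1% of all protein-coding genes. They summed to 246 TPM in pup 1 and 215 TPM in pup 3. Cldn5, a tight junction gene, was at 117 and 98.3 TPM, Slc2a1, the glucose transporter of the barrier, at 39.8 ± 2.36 and the lipid transporter gene Mfsd2a at 27.5 ± 2.69 TPM. The lowest, Slco1a4, was at 2.03 ± 0.75 TPM. The endothelial sum was higher in pup 1 by 0.20 on the log2 scale, while Lef1 differed by 0.0030. The share of Lef1 RNA from endothelium or from neurons was not tested.

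For Tcf7l1, the list of radial glia and progenitors was read. Of the 10 genes on this list 9 reached 1 TPM in each pup, against 62.1% of all protein-coding genes. Fabp7 (2373 ± 51.6), Vim (202 ± 12.9) and Hes5 (146 ± 9.24) led it, the neural stem cell factor Sox2 was at 16.1 and 22.8 TPM, and the proliferation gene Mki67 was lowest at 0.970 and 1.27 TPM. All 7 astrocyte genes reached that level, from Aldoc (226 ± 49.7), Gja1 (126 ± 6.01) and Aldh1l1 (77.1 ± 10.1) to Slc1a2 (12.1 ± 0.997 TPM). For Tcf7, the defining T lymphocyte genes were at or near 0. Cd3d, Cd3g and Cd8a had 0 counts in both pups, Cd3e was at 0.1 and 0.09 TPM, and Cd4 at 0.49 and 0.21 TPM. The 2 genes of that list above 1 TPM, Lck (16.3 ± 1.91) and Bcl11b (16.0 ± 0.113), are also expressed in neurons. Over the 9 genes of the list the median was 0.0950 ± 0.00707 TPM, and the sum was 31.8 TPM in pup 1 and 34.1 TPM in pup 3.

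Neighbouring annotations took few reads. The annotation places 11 genes within the 4 members, on either strand, of which 9 were in the tables, and none of these had more than 9 counts in either pup. Ppnr, the only one inside Tcf7l2, had 3 counts in pup 1 and 0 in pup 3. Counts of all 4 members were whole numbers within 0.005 in both pups, so no fraction of a read was assigned to them.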

How the data were processed

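Members, lists and measures were chosen with earlier results of these data known. Symbols and structures came from GENCODE M21 by matching identifiers without version. A symbol was found for 42462 of 43346 Ensembl genes (98.0%). Per the deposited text record, tables were built from transcriptome alignments on mm10 with GENCODE M4; the program is not given in the sources used here. The authors deposited expected counts (estimated reads), TPM, the percent of a gene's TPM per transcript, and bounds of a credibility interval of unstated level as signal values in TPM. Of 22 Tcf7l2 transcripts, 17 had the same length in both releases; the other 5 held 9.00% ± 0.735 of its TPM. Reading frames and exon shares were computed from M21 models, and proteins were translated with Biopython 1.88.

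There was 1 group of 2 animals, so nothing was tested between conditions. With 2 animals, the smallest p of an exact sign-flip test is 0.5. Ratios used log2 of TPM plus 0.1. Differences between pups were read from a mean expected count of 100 upward, and the step was checked on simulated data. Counts were rounded for edgeR 4.0.16 (TMM, genes with mean counts from 10 upward) and DESeq2 1.42.0 (R 4.3.3). Python 3.11.15, pandas 2.3.3 and SciPy 1.17.1 were used. Named list genes are the 3 highest and the lowest by mean TPM, plus partners, targets and markers the text needs. The value of 1 gene under this rule is not reported here. Only counting error enters the intervals and floors. The labels name separate pups with 1 library each, so the SD holds differences between animals, dissections and libraries together.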

Additional observations from a re-analysis of the deposited data

How the results depend on the processing

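The mean level of Tcf7l2 stayed within 1 SD under TMM scaling, DESeq2 size factors, posterior mean TPM and TPM over Ensembl genes alone. The TMM and DESeq2 values were put back on the TPM scale over the 2 pups together. Their mean could therefore hardly move and is no check of the level. Tcf7l2 was at 645 to 726 TPM with either pup left out. Its family share was 92.6% to 93.4% with either pup left out. With 2 pups, leaving out 1 returns the value of the other. These ranges and those below therefore repeat the values of the single pups and are no further check. With either pup left out, the log2 ratio was 3.87 to 4.05 over Lef1, 6.94 to 7.17 over Tcf7l1 and 7.86 to 8.07 over Tcf7. With a pseudocount of 1 TPM the last 2 were 6.82 and 7.55, and by counts the ratio over Tcf7 was 8.45. By counts Tcf7l1 over Tcf7 was 1.27, past the limit of 1 that it missed on TPM. Transcript shares moved most with length. By counts, the leading transcript held 77.6%, transcripts with the beta-catenin-binding start 85.9%, internal starts 12.4% and the long tail 2.42%. The beta-catenin-binding share was 80.7% of coding transcripts and 76.9% for all transcripts that begin in the first exon, and internal starts were 12.7% of transcripts that reach the last exon. With either pup left out these shares were 65.8% to 66.2% (leading), 72.8% to 73.9% (beta-catenin-binding), 22.0% to 23.9% (internal) and 1.91% to 2.19% (long tail). The difference between pups for Tcf7l2 was -0.15 under both TMM and DESeq2 scaling, and the cause was not tested. Without the filter on counts, 2364 genes in place of 42 passed 1 between the pups. Over all lists 145 of 177 genes reached 1 TPM in each pup, against 62.1% of all protein-coding genes. With either pup left out this number was 145 to 148. No value changed sign, which levels, shares and numbers of genes could not do in any case. The count-based shares other than that of the leading transcript, the share for transcripts beginning in the first exon, and the measures of internal starts and tails were chosen after seeing the data. No paired analysis was possible because there is only 1 group. Tcf7, at 138 and 146 counts, has the least depth of the members.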
